A study of Mus musculus with 6 samples.

Results

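Genes of the p53 pathway were examined in KLS cells, a sorted fraction of bone marrow (Kit and Sca-1 present, lineage markers absent) that contains blood-forming stem cells and early progenitors. The set was a list of 32 genes: p53 itself (Trp53), its direct regulators and its target genes. It was chosen by gene name, and 29 of the 32 were measured among 20059 genes in all. No probe set of the array was named Trp53, Bax or Fdxr, so these 3 were not analysed here. Every other member had probe sets that passed the filter on dim probe sets.

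The study compared 3 arrays of wild-type KLS cells with 3 of Dnmt3a+/- KLS cells, which retain 1 intact copy of Dnmt3a, an enzyme that places new DNA methylation. By its title, it asks how the loss of 1 copy predisposes blood-forming cells to myeloid malignancy. Each array read total RNA amplified from 20 ng. The kind of disrupted allele, the ages and whether arrays came from separate animals are not given in the labels used here. The p-values therefore reflect only the variation among these samples, part of which may be technical.

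The protein p53 is a transcription factor that is kept low in unstressed cells and is stabilised by DNA damage and other stress. It then switches on genes that halt the cell cycle, repair DNA or start cell death, and it also switches on Mdm2, which brings p53 back down. In blood stem cells the pathway is known for restraining cycling and for removing cells with damaged DNA. Because p53 is controlled mainly as a protein, the RNA levels of its targets are the usual RNA readout of its activity.

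The binding site of p53 is a pair of 10-base motifs, and near matches to this p53 response element are shown first because they mark the members that carry the site close to their start. RefSeq promoter windows of build GRCm38.p6, from 250 bases before to 50 after a start site, were found for 24 of the 32 members (32 windows). There were none for Ddb2, Perp, Pmaip1, Rrm2b, Tnfrsf10b, Trp53inp1, Xpc and Zmat3. Both strands were searched for 2 such motifs side by side, with the central C and G of each required and up to 3 mismatches over the 20 bases. A match with at most 1 mismatch lay in 3 of the 24 members (12.5%), against 0.0814% of all 27025 genes with a window, and in 9.38% of the members' windows, against 0.067% of all 32851 windows. With up to 3 mismatches 7 of the 24 members had one (29.2%), against 1.63% of all genes with a window. The members were listed as p53 targets, so these higher shares may reflect how the list was made. Elements outside the windows, or with a spacer between the motifs, were not searched for. Below are the matches of the 6 measured members, with the element in capitals, 5′ to 3′ on the gene's strand and with 15 bases to each side.
Ccng1: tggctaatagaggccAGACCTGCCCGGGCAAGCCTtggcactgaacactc
Gtse1: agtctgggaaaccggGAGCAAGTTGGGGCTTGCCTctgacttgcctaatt
Rps27l: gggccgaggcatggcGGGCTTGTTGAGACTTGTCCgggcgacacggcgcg
Aen: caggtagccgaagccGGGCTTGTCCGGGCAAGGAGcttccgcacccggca
Bbc3: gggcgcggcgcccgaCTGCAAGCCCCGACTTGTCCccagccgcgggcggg
Sesn1: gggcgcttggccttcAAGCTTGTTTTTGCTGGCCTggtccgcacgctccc
The element of Ccng1 lies at chr11:40755462-40755481 on the minus strand, and those of Gtse1 and Rps27l at chr15:85859945-85859964 and chr9:66946296-66946315 on the plus strand. These are the 3 with 1 mismatch. The elements of Aen (chr7:78895937-78895956), Bbc3 (chr7:16309486-16309505) and Sesn1 (chr10:41887266-41887285), all on the plus strand, have 3. The Trp53 window also holds a match with 3 mismatches. A match describes these letters only, and binding was not measured here.

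The quality of the arrays bears on all values below. Pairwise correlations across genes ran from 0.897 to 0.964, and Dnmt3a+/- replicate 2 stood apart with the lowest mean correlation (0.904). On that array the brightest 25% of genes had a median of -0.27 relative to the wild-type mean on the log2 scale, and the dimmest 25% one of 0.13. On the mean of the other Dnmt3a+/- arrays these medians were -0.06 and 0.04. Of the measured members, 9 lay in the brightest and 7 in the dimmest 25%. Dnmt3a itself read 8.51, 8.70 and 8.50 on the wild-type arrays and 8.38, 8.20 and 8.20 on the Dnmt3a+/- arrays, lower on each Dnmt3a+/- array. The sort antigen gene Kit was bright on every array (10.59 to 10.80) and differed by -0.11 (SE 0.10), lower on each Dnmt3a+/- array, and Ly6a, which encodes Sca-1, differed by -0.02 (SE 0.13) with overlap. Marker genes of other blood cell types were read too. The summed linear level of 11 measured neutrophil genes was 12760 to 18825 in wild-type and 16002 to 23194 in Dnmt3a+/- cells, so the genotypes overlapped in this sum, with 9 of the 11 higher in the mean. Neutrophil genes that did separate were Retnlg at 0.98 (SE 0.22) and Mmp8 at 0.64 (SE 0.20), higher on each Dnmt3a+/- array (limma adjusted p = 0.631 for both). The summed level of 7 erythroid genes was 1609 to 2717 and 1507 to 1738, of 10 monocyte genes 1786 to 2070 and 1853 to 2027, of 9 B lineage genes 1379 to 1686 and 1452 to 1729, and of 9 T and NK genes 2024 to 2415 and 1872 to 2429. Without overlap, 1 of the 10 monocyte genes was lower (Csf1r) and 3 higher (Adgre1, Vcam1 and C1qb), 1 B lineage gene was lower (Cd72) and 1 higher (Cd22), and 1 T and NK gene was lower (Klrd1) and 1 higher (Cd3e). The shares without overlap on either side were 18.2% (neutrophil), 40% (monocyte), 22.2% (B lineage), 22.2% (T and NK) and 0% (erythroid). Over all genes this share was 15.8%, with 9.05% lower and 6.74% higher. The marker genes are named after their values were seen. Whether RNA of these cell types was present, and what part it had in the results, was not tested. In bulk RNA, fewer cells of a type and less RNA per cell cannot be told apart.

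No p53 pathway gene passed the test between the genotypes. The largest differences were in genes lower in Dnmt3a+/- cells: the stress protein gene Trp53inp1 (26% lower), the damage-bypass polymerase gene Polk (22% lower) and the damage sensor gene Ddb2 (21% lower). On the other side stood the death receptor gene Fas (20% higher). Of 29 measured members, 0 had an adjusted p under 0.05 (limma, smallest adjusted p = 0.631), and the share over all genes was 0% too. An unadjusted p under 0.05 was found for 2 members, or 6.9% of the measured members, beside 7.49% of all genes, so this share was near the background. Both were lower in Dnmt3a+/- cells, where 4.57% of all genes had such a p on the lower and 2.92% on the higher side. The Dnmt3a+/- mean was lower for 18 of the 29 (62.1%) and for 54.3% of all genes. The median log2 difference was -0.12 over the members and -0.02 over all genes. Genes were also split by brightness into classes of nearly equal size. From the brightest to the dimmest class, the members' medians were -0.14, -0.11, -0.14 and 0.007 (9, 10, 3 and 7 members). The medians of all genes in these classes were -0.13, -0.06, 0.04 and 0.07. The part of brightness in the members' median was not tested.

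The genotypes did not overlap for 7 members. In 5 of them (Mdm2, Apaf1, Trp53inp1, Ccng1 and Polk) each Dnmt3a+/- array lay below each wild-type array, beside 9.05% of all genes. In 2 (Fas and Gtse1) each lay above, beside 6.74% of all genes. For each of the 7 an exact two-sided permutation test gave p = 0.1, the smallest that 3 against 3 arrays allow.

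**Figure D1:**
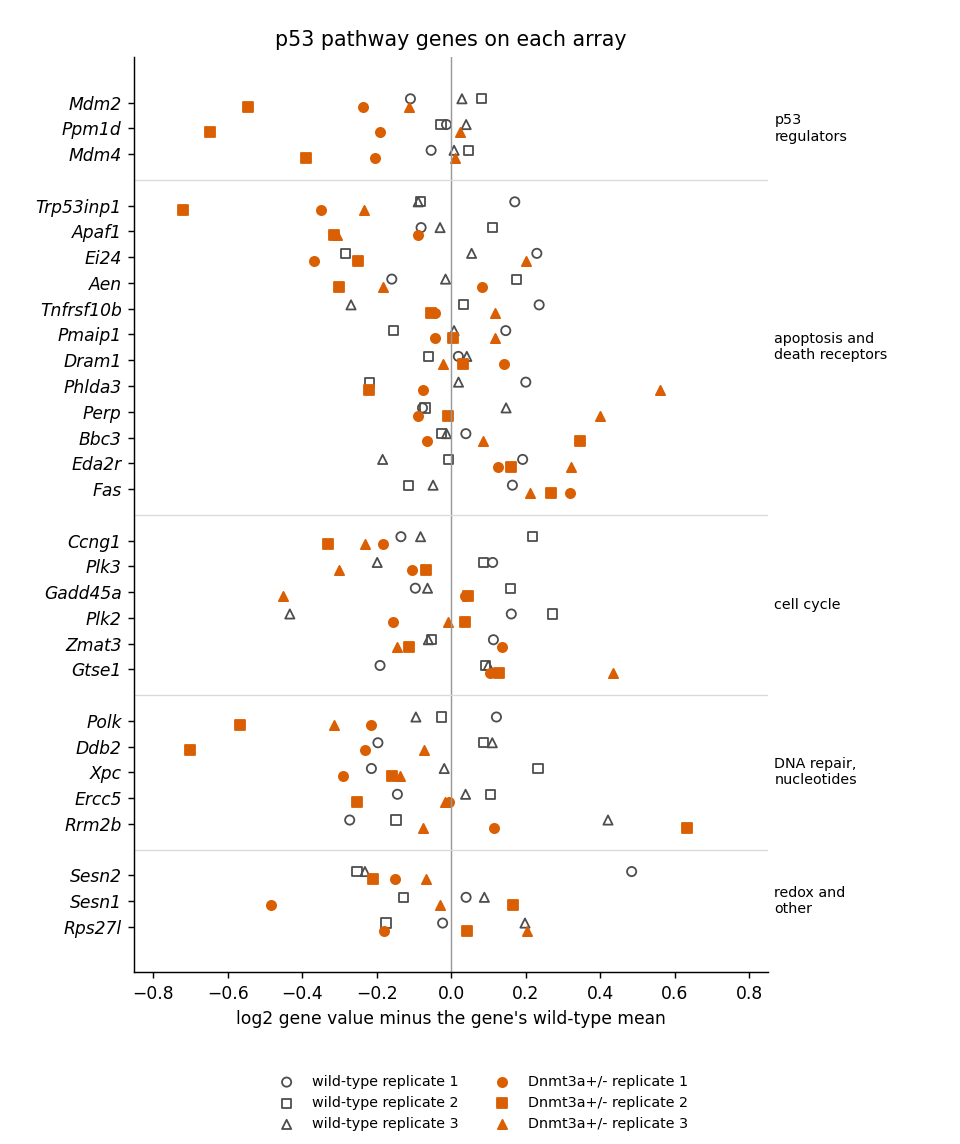
Log2 gene value of each measured p53 pathway gene on each of the 6 arrays, relative to that gene's wild-type mean, grouped by role. Open grey symbols are wild-type and filled orange symbols Dnmt3a+/- arrays, with 1 symbol shape per replicate number, and Dnmt3a+/- replicate 2 (orange squares) gave the lowest value of its group for 13 of the 29 genes.

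**Figure D2:**
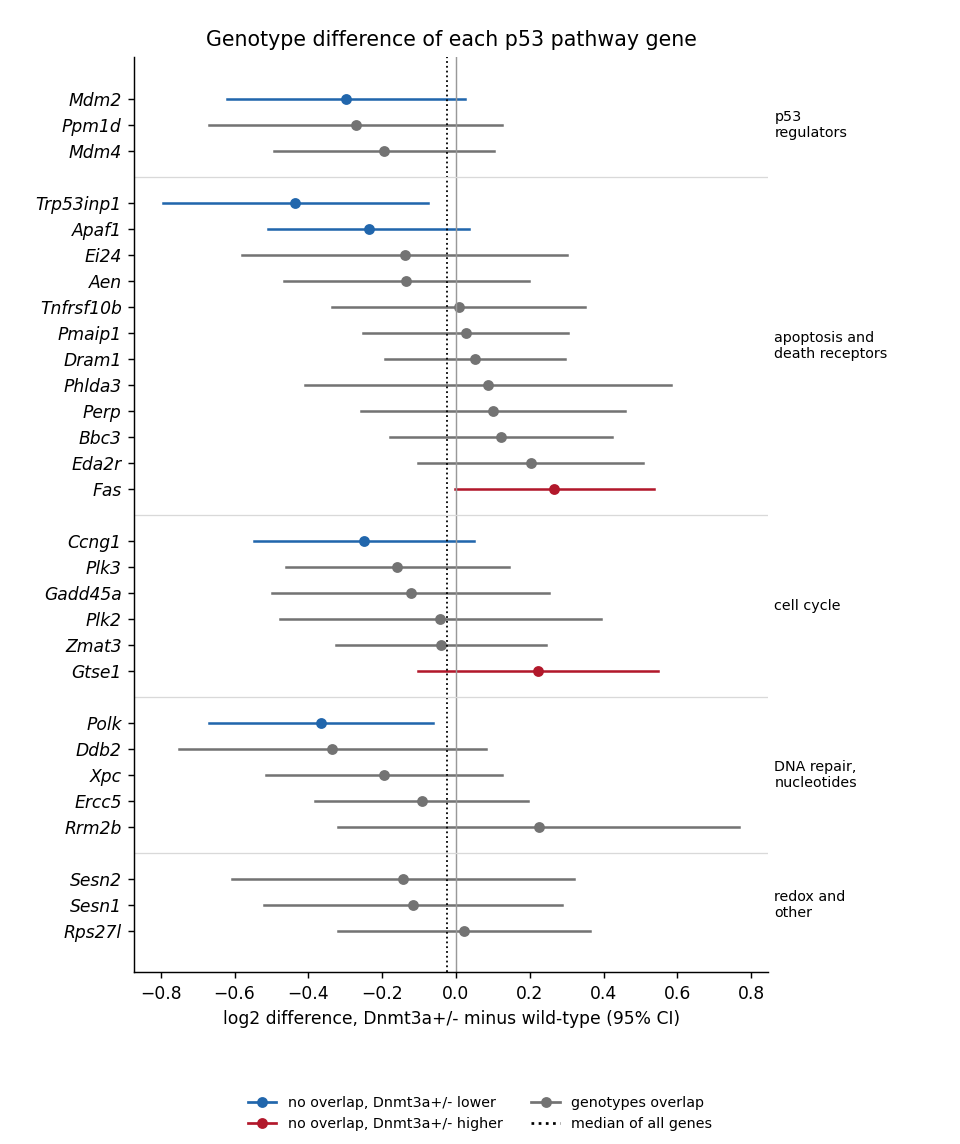
Log2 difference (Dnmt3a+/- minus wild-type) of each measured p53 pathway gene with its 95% confidence interval from limma, grouped by role. Blue and red mark the 5 and 2 genes whose genotypes did not overlap, the dotted line is the median of all genes (-0.02), and 27 of the 29 intervals include 0.

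All 3 measured direct regulators of p53 restrain it, and all 3 had lower means in Dnmt3a+/- cells, with a median difference of -0.27. Mdm2, the ubiquitin ligase that marks p53 for destruction and is itself a p53 target, read 8.83, 9.02 and 8.96 on the wild-type arrays and 8.70, 8.39 and 8.82 on the Dnmt3a+/- arrays. The genotypes did not overlap, but the highest Dnmt3a+/- array lay next to the lowest wild-type array and Dnmt3a+/- replicate 2 was well below the rest. The log2 difference was -0.30 (SE 0.14, 95% confidence interval -0.62 to 0.02, limma adjusted p = 0.631), and it was -0.18 without Dnmt3a+/- replicate 2. Mdm4, which binds p53 and masks its activation domain, read 8.94, 9.04 and 9.004 on the wild-type arrays and 8.79, 8.61 and 9.01 on the Dnmt3a+/- arrays. Dnmt3a+/- replicate 3 lay within the wild-type values and the other Dnmt3a+/- arrays below them. The difference of -0.19 (SE 0.13) became -0.10 without replicate 2. Ppm1d, the phosphatase that removes damage-induced phosphates from p53 and from its kinases, read 7.78, 7.76 and 7.83 on the wild-type arrays and 7.60, 7.14 and 7.81 on the Dnmt3a+/- arrays. The wild-type arrays were close together, and replicate 2 again lay lowest. Its difference of -0.27 (SE 0.17) became -0.08 without that array.

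Genes of cell death pointed both ways, with 4 of 12 measured members lower and 8 higher in the mean and a median difference of 0.04. Trp53inp1, a stress-induced protein that enhances p53 activity and takes part in autophagy, read 8.22, 7.97 and 7.96 on the wild-type arrays and 7.70, 7.33 and 7.82 on the Dnmt3a+/- arrays. All Dnmt3a+/- arrays were below all wild-type arrays, with replicate 2 lowest. Its log2 difference of -0.44 (SE 0.15, 95% confidence interval -0.79 to -0.08) was the largest of any member, with an unadjusted p of 0.0233 and an adjusted p of 0.631 (limma). Without replicate 2 it was -0.29. Apaf1, the scaffold on which caspase-9 is activated, read 7.61, 7.80 and 7.66 on the wild-type arrays and 7.60, 7.37 and 7.38 on the Dnmt3a+/- arrays. The genotypes were separated by a narrow gap between wild-type replicate 1 and Dnmt3a+/- replicate 1. The difference was -0.24 (SE 0.12).

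Of the 3 death receptors, Fas alone separated the genotypes and none passed the test. With no filter on dim probe sets, and with the median of probe sets, Eda2r separated them (higher) and Fas did not. Fas, the receptor of Fas ligand, read 8.10, 7.82 and 7.89 on the wild-type arrays and 8.26, 8.21 and 8.15 on the Dnmt3a+/- arrays. Here the Dnmt3a+/- arrays were the ones close together, and all lay above the wild-type arrays. The difference was 0.27 (SE 0.12, 95% confidence interval -0.003 to 0.54, limma adjusted p = 0.631), and it was 0.27 without Dnmt3a+/- replicate 2 as well. The value rested on 4 kept probe sets of 13 named Fas. The brighter ones differed by 0.02 and 0.16, and the dimmer ones by 0.34 and 0.54. Over the alternative settings the smallest difference of Fas was 0.09. Eda2r, a receptor of ectodysplasin A2, differed by 0.20 (SE 0.13) with overlapping genotypes. Tnfrsf10b, the mouse TRAIL receptor, had the difference nearest to 0 in this group. It read 6.83, 6.62 and 6.32 on the wild-type arrays and 6.55, 6.54 and 6.71 on the Dnmt3a+/- arrays, with the Dnmt3a+/- arrays inside the wild-type range. The difference was 0.01 (SE 0.15), and its sign turned in 7 of 15 alternative settings.

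The genes of the BH3-only proteins, which set off the mitochondrial pathway of apoptosis, showed no difference beyond their spread in the main setting. Bbc3, which encodes Puma, differed by 0.12 (SE 0.13) and by 0.01 without Dnmt3a+/- replicate 2, and Pmaip1, which encodes Noxa, by 0.03 (SE 0.12, 95% confidence interval -0.25 to 0.31). Of the 5 kept probe sets of Pmaip1, 4 were higher and 1 was lower without overlap (-0.80). With the median of probe sets Pmaip1 lay higher without overlap (beside 6.07% of all genes). The differences of the remaining death genes lay between -0.14 and 0.10, with overlapping genotypes in each. They were -0.14 (SE 0.19) for Ei24, a membrane protein of the endoplasmic reticulum, and -0.13 (SE 0.14) for Aen, a nuclease of apoptotic cells. For Dram1, a lysosomal protein of autophagy, the difference was 0.05 (SE 0.11), for Phlda3, an inhibitor of Akt, 0.09 (SE 0.21), and for the membrane protein gene Perp 0.10 (SE 0.15). Phlda3 was high on Dnmt3a+/- replicate 3 alone (8.54, against 7.76 to 8.19 elsewhere), and without that array its difference was -0.15.

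Among the cell cycle members 5 of 6 had lower and 1 a higher mean in Dnmt3a+/- cells (median -0.08). Ccng1, the gene of cyclin G1, which acts with Mdm2 to lower p53, read 8.93, 9.29 and 8.99 on the wild-type arrays and 8.89, 8.74 and 8.84 on the Dnmt3a+/- arrays. All Dnmt3a+/- arrays were lower, and wild-type replicate 2 stood above its group. The difference was -0.25 (SE 0.13), and it was -0.14 without that wild-type array. Gtse1, a microtubule-binding protein of dividing cells that moves p53 out of the nucleus, read 7.14, 7.42 and 7.43 on the wild-type arrays and 7.44, 7.46 and 7.77 on the Dnmt3a+/- arrays. The Dnmt3a+/- arrays were higher, but the gap to the nearest wild-type arrays was small. Its difference of 0.22 (SE 0.14) became 0.13 without wild-type replicate 1 and 0.12 without Dnmt3a+/- replicate 3. Both genes carry an element with 1 mismatch, printed above, and neither passed the test (limma adjusted p = 0.631 and 0.663).

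The other cell cycle members overlapped between genotypes. Zmat3, an RNA-binding protein that regulates splicing, read 6.96, 6.80 and 6.79 on the wild-type arrays and 6.98, 6.73 and 6.70 on the Dnmt3a+/- arrays. Both groups had replicate 1 highest and their ranges overlapped, with a difference of -0.04 (SE 0.12). The stress kinases Plk2 and Plk3 stood at -0.04 (SE 0.19) and -0.16 (SE 0.13). Gadd45a, a stress protein of growth arrest and repair, stood at -0.12 (SE 0.16), with the sign turned to 0.04 without Dnmt3a+/- replicate 3.

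Of the repair and nucleotide genes 4 of 5 had lower means in Dnmt3a+/- cells (median -0.20). Polk, the DNA polymerase that copies past damaged bases, read 7.65, 7.50 and 7.44 on the wild-type arrays and 7.31, 6.96 and 7.22 on the Dnmt3a+/- arrays. The genotypes did not overlap. The difference was -0.37 (SE 0.13, 95% confidence interval -0.67 to -0.06), with an unadjusted p of 0.0236 and an adjusted p of 0.631 (limma), and it was -0.26 without Dnmt3a+/- replicate 2. Ddb2, which recognises ultraviolet damage for nucleotide excision repair, had a difference of nearly the same size, -0.33 (SE 0.18), but its genotypes overlapped. It was -0.15 without Dnmt3a+/- replicate 2, where it read 7.19 against at least 7.66 on each other array. Xpc, another sensor of that repair pathway, differed by -0.20 (SE 0.14), and by -0.08 without wild-type replicate 2. Ercc5, an endonuclease of the same pathway, read 7.27, 7.52 and 7.45 on the wild-type arrays and 7.40, 7.16 and 7.39 on the Dnmt3a+/- arrays. The genotypes overlapped, and the difference was -0.09 (SE 0.12). Rrm2b, the ribonucleotide reductase subunit of resting cells, stood at 0.22 (SE 0.24) and at 0.02 without Dnmt3a+/- replicate 2. It varied widely within both genotypes, from 7.05 to 7.74 in wild-type and from 7.24 to 7.95 in Dnmt3a+/- cells.

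The remaining targets did not separate the genotypes. Rps27l, a ribosomal protein related to S27 that also carries an element with 1 mismatch, read 9.55, 9.39 and 9.77 on the wild-type arrays and 9.39, 9.61 and 9.77 on the Dnmt3a+/- arrays. The ranges of the genotypes were nearly the same, with a difference of 0.02 (SE 0.15, 95% confidence interval -0.32 to 0.36). The sestrins, which restrain the growth kinase mTORC1, stood at -0.12 (SE 0.17) for Sesn1 and -0.14 (SE 0.20) for Sesn2. Sesn2 was high on wild-type replicate 1 (7.60, against 6.86 to 7.05 elsewhere), and without that array its difference was 0.10. That array also had the highest summed linear level of the 11 measured handling stress genes, such as Fos, Jun and Dusp1 (7770, against 3472 to 5571 on the others). The part of handling in these values was not tested.

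Single probe sets show whether a gene value rests on reads that move together, though probe sets of a gene share samples and are not replicates. The members had 379 kept probe sets, and 0 of them passed (limma, smallest adjusted p = 0.799), beside 0% of 628415 kept probe sets. An unadjusted p under 0.05 was found for 26 (6.86%), beside 6.21% of all kept probe sets and 5.84% of those with 1 gene symbol. Of the 379, 43 (11.3%) were lower in Dnmt3a+/- cells without overlap and 8 (2.11%) higher. The shares were 7.62% and 4.27% among all kept probe sets with 1 symbol, and 6.1% and 6.31% among all kept probe sets. The mean was lower in Dnmt3a+/- cells for 237 of the 379 (62.5%) and for 58% of the kept probe sets with 1 symbol. The lower ones lay mainly in a few genes: Apaf1 (7 of 42), Polk (6 of 24), Mdm2 (5 of 17), Mdm4 (5 of 25), Trp53inp1 (3 of 8), Sesn1 (3 of 12) and Xpc (3 of 20).

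Probe sets of 1 gene did not move by equal amounts. In Polk 19 of 24 were lower, with differences from -1.28 to 0.34, and probe set 4801091 read 7.28, 7.91 and 7.25 on the wild-type arrays and 6.60, 6.23 and 5.90 on the Dnmt3a+/- arrays. In Mdm2 13 of 17 were lower, with differences from -1.07 to 0.12. Trp53inp1 had 3 probe sets at -1.18, -1.05 and -1.02, while its other 5 lay between -0.19 and 0.17, so its gene value rested on those 3. Ddb2 was lower in 16 of 17 probe sets, 2 of them without overlap. In Ccng1 8 of 9 were lower, 1 of them without overlap. All 4 probe sets of Fas were higher in Dnmt3a+/- cells (0.02 to 0.54), 2 of them without overlap, as were all 3 of Eda2r. Where in the genes the probe sets lie was not used here.

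**Figure D3:**
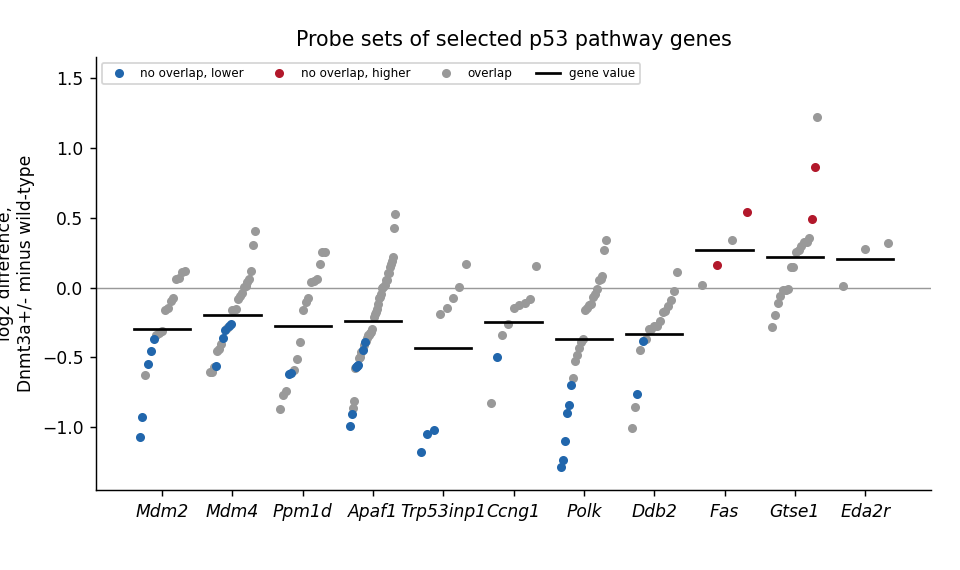
Log2 difference (Dnmt3a+/- minus wild-type) of each kept probe set (points, sorted within a gene) of 11 p53 pathway genes, with the gene value as a black line. Blue and red points are probe sets whose genotypes did not overlap, and the 11 genes, chosen after their values were seen, are the 7 whose gene values did not overlap plus Mdm4, Ppm1d, Ddb2 and Eda2r.

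Further p53 targets were taken from a separate list. Of its 26 genes 24 were measured and 0 passed (limma adjusted p 0.631 or more). Lower means in Dnmt3a+/- cells were found for 20 (83.3%, beside 54.3% of all genes). The median difference was -0.09, beside -0.02 over all genes. An unadjusted p under 0.05 was found for 2 (8.33%, beside 7.49% of all genes) and no overlap for 3 (Rap2b, Abhd4 and Sertad1, 12.5%, beside 9.05% of all genes lower), all lower. Both shares were near the background. Cdkn1a, which encodes the cell cycle inhibitor p21 and is the best-known p53 target, read 7.61, 7.77 and 7.97 on the wild-type arrays and 8.02, 6.60 and 7.59 on the Dnmt3a+/- arrays. Dnmt3a+/- replicate 1 was the highest and replicate 2 the lowest of all arrays. The difference of -0.38 (SE 0.32) was 0.02 without replicate 2. The smallest p-values belonged to Rap2b, a small GTPase, at -0.43 (SE 0.11), the tetraspanin gene Cd82 at -0.38 (SE 0.15), and Abhd4, a lipid hydrolase, at -0.31 (SE 0.16). Rap2b rested on 3 probe sets and was -0.16 with dim probe sets included.

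Genes that act upstream of p53 or bind it were measured for 25 of 26, and 0 passed (limma adjusted p 0.631 or more). The mean was lower for 20 of the 25 (80%), beside 54.3% of all genes. The median difference was -0.13, beside -0.02 over all genes. From the brightest to the dimmest class of all genes the medians were -0.13, -0.06, 0.04 and 0.07. The genes of this list were not divided into these classes. The part of brightness was not tested. An unadjusted p under 0.05 was found for 3 of the 25 (Cop1, Ep300 and Trp53bp1), all lower, beside 7.49% of all genes. Without overlap 4 lay lower (Cop1, Ep300, Trp53bp1 and Crebbp) and 1 higher (the p53 relative Trp63), beside 9.05% and 6.74% of all genes. Sertad1, Crebbp and Trp63 are named after their values were seen. Cop1, a ubiquitin ligase that also degrades p53, stood at -0.57 (SE 0.17) on 2 probe sets, and at -0.16 with dim probe sets included. The acetyltransferase gene Ep300, whose product is a coactivator of p53, stood at -0.32 (SE 0.12), and Trp53bp1, which encodes the damage protein 53BP1, at -0.33 (SE 0.12). The damage kinase gene Atm read 7.79, 8.07 and 7.93 on the wild-type arrays and 7.74, 7.21 and 7.91 on the Dnmt3a+/- arrays, with replicate 2 lowest. Its difference was -0.31 (SE 0.19), and it was -0.10 without that array. Cdkn2a, whose Arf product inhibits Mdm2, was close between genotypes at 0.06 (SE 0.11). Its gene value does not separate the p16 and Arf transcripts.

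The direction of 15 of the 29 measured members was the same in all 15 alternative settings, 11 lower and 4 higher, and that of 14 turned in at least 1. Trend and robust estimation and the replicate block leave a difference of means unchanged, so they could not turn a direction. The share of all genes that kept their direction was not computed. The 4 that stayed higher were Fas, Eda2r, Gtse1 and Rrm2b. Their smallest values were 0.09 for Fas, 0.01 for Eda2r, 0.12 for Gtse1 and 0.02 for Rrm2b. Among those that stayed lower were Mdm2, Mdm4, Ppm1d, Trp53inp1, Apaf1, Ccng1, Polk, Ddb2 and Xpc. Their sizes moved with single arrays. The genotypes were also compared in 6 settings that changed the values but kept all arrays. They stayed apart on the same side in 5 for Mdm2, Trp53inp1, Ccng1 and Polk. They did so in 4 for Fas, in 3 for Apaf1 and in 1 for Gtse1. These genes were picked because they did not overlap in the main setting. The settings reuse the same arrays, so these counts are no independent evidence of a difference. The share of all genes apart in the main setting that stayed apart was not computed. Cyclic loess on the gene values removes a shift that depends on brightness. With it, Mdm2 stood at -0.16, Mdm4 at -0.06, Ppm1d at -0.21, Trp53inp1 at -0.35 and Apaf1 at -0.19. Ccng1 stood at -0.11, Polk at -0.36, Ddb2 at -0.26 and Xpc at -0.07. Fas stood at 0.38, Eda2r at 0.15, Gtse1 at 0.25 and Rrm2b at 0.25. The part of brightness in these values was not tested.

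**Figure D4:**
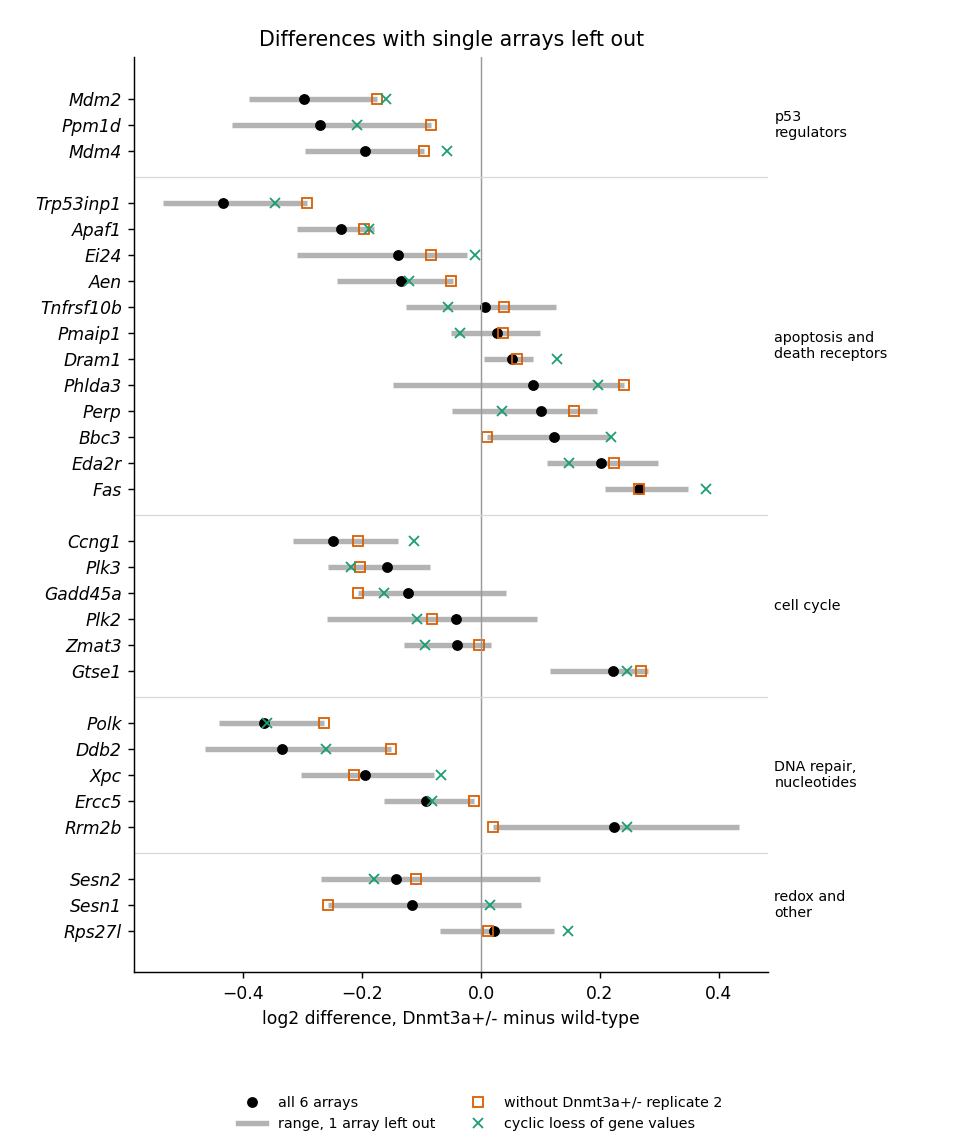
Log2 difference (Dnmt3a+/- minus wild-type) of each measured p53 pathway gene with all 6 arrays (black), its range when single arrays are left out (grey bar), without Dnmt3a+/- replicate 2 (orange squares) and with cyclic loess on gene values (green crosses). Mdm2, Mdm4, Ppm1d and Ddb2 moved toward 0 without replicate 2 (to -0.18, -0.10, -0.08 and -0.15), while Fas kept 0.27.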

How the data were processed

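The authors deposited normalized intensity values on a linear scale, 1 per probe set and array, made with RMA in Partek per the submitters' processing notes. Versions, settings and build: not given in the sources used here. Values ran from 1.84 to 22239, and log2 was taken with no pseudocount. Of 1256831 probe sets, 318760 had 1 gene symbol in the platform annotation, 6684 had several and 931387 had none listed. Older symbols were updated through RefSeq (GRCm38.p6). Probe sets with a mean above the median of all were kept, and a gene's value is the mean of its kept probe sets. Genotypes were compared over all genes with limma 3.58.1 in R 4.3.3 (lmFit, eBayes, no covariate, Benjamini-Hochberg). The fit was also run on simulated data with known changes. The simulation had no outlying array and no shift with brightness, so it does not cover these features of the arrays. The precision is limited by the number of arrays, which have no counting depth. The members, the lists, the rule for named genes (every member, with values on each array for the regulators, for members without overlap or with unadjusted p under 0.05 and for the one nearest 0 per role, and Cdkn1a, Atm, Cdkn2a and the 3 smallest p of each further list) and the tests were chosen with earlier results of these data known. The promoter search was added after the values were seen. Alternatives were the dim filter, median summary, 2 renormalizations, estimation options, the replicate block and leaving out each array. No array pair was identical.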

Additional observations from a re-analysis of the deposited data

How the results depend on the processing

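No gene and no member passed adjusted p 0.05 in any of 15 alternatives (limma), of which cyclic loess on gene values was added after the data were seen. The count of members with a lower Dnmt3a+/- mean was 15 to 21 with 1 array left out (beside 51.5% to 55.3% of all genes). Members with an unadjusted p under 0.05 (2) became 1 with the filter at the 75th percentile, which measured 27 members (beside 7.34% of all genes), 4 with array weights (beside 12.9%) and 0 to 6 with 1 array left out (0 without Dnmt3a+/- replicate 2, beside 5.41%, 6 without replicate 3, beside 9.61%, and 1 without wild-type replicate 1, beside 7.06%). They were not always the same genes. With the median of probe sets they were Apaf1, Eda2r and Mdm2 in place of Polk and Trp53inp1 (beside 6.78% of all genes). In that setting Polk overlapped, while Ddb2 and Mdm4 lay lower without overlap and Pmaip1 higher (beside 7.85% and 6.07% of all genes). With array weights they were Fas, Mdm2, Trp53inp1 and Xpc. Members lower without overlap (5) became 3 with that filter (beside 9.43% of all genes), 3 with cyclic loess on gene values (beside 6.46%) and 5 to 8 with 1 array left out (beside 12.5% to 17.2%). Those higher without overlap (2) became 1 with no filter (beside 6.26% of all genes) and with the 75th percentile filter (beside 6.12%). They were also 1 with cyclic loess (beside 7.1%) and with cyclic loess on gene values (beside 6.96%), and 2 to 4 with 1 array left out (beside 9.76% to 15.5%). The members' median difference was -0.054 with array weights, -0.068 with cyclic loess on gene values and -0.13 to -0.024 with 1 array left out (-0.024 without wild-type replicate 1, -0.066 without replicate 2). The causes were not tested. Deviations of same-numbered arrays correlated at -0.05, -0.09 and 0.11, and those of the other pairs at -0.17 to 0.17. The summed level of handling stress genes was lowest on replicate 3 in both genotypes (3472 and 3574). Whether a shared number marks a litter, day or batch is not given in the labels, and so few correlations cannot decide it. With the replicate block 2 members had an unadjusted p under 0.05, and 6.35% of all genes in place of 7.49%.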
